A study of Mus musculus with 6 samples.

Results

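Apolipoproteins and the lipid loader Mttp were followed in the livers of mice kept on a choline- and folate-deficient diet. The 10 genes were Apob, Mttp, Apoa1, Apoa2, Apoa4, Apoa5, Apoc1, Apoc2, Apoc3 and Apoe, chosen by name for their part in making plasma lipoproteins. Earlier results of these data were known when they were chosen. Every array spot carrying 1 of these names, and not marked as a control, was used. This gave 16 probes on 34 spots, of 41174 probes on 43379 spots and 27670 names on the whole array. Liver RNA came from male C57BL/6J mice, an inbred laboratory strain, and was hybridised with a single dye (Cy3) on 6 Agilent whole-genome mouse arrays. The CFD diet group (3 arrays) ate an iron-supplemented mixture built from free amino acids, with no choline, no folic acid and 0.17% methionine by weight. The control group (3 arrays) ate that mixture with choline bitartrate at 0.3%, methionine at 0.4% and folic acid at 2 mg/kg, so both groups shared the iron supplement and the amino acid base. Mice were put on their diet at 8 weeks of age, stayed on it for 12 weeks and were 20 weeks old when the liver was taken. Replicates are numbered in the labels, which do not state that every array came from its own mouse. Below, a liver numbered 1 to 3 means the array of that replicate, and n counts arrays. The p-values therefore rest on the variation among these arrays, some of which may be technical.

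The liver exports triglyceride in very low density lipoprotein (VLDL). Each particle is built on a single apolipoprotein B chain, which is loaded with lipid in the endoplasmic reticulum by microsomal triglyceride transfer protein, the product of Mttp, working as a heterodimer with the disulfide isomerase P4hb. Choline is needed to make phosphatidylcholine, the main phospholipid of the particle surface, and a choline-deficient diet is a long-used way to make the rodent liver store fat. The smaller, exchangeable apolipoproteins (A-I, A-II, A-IV, A-V, the C proteins and E) move between particles and act as enzyme cofactors, enzyme inhibitors or receptor ligands.

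Signals are given as scaled signal, the processed intensity of a probe divided by the 75th percentile of its array. All 16 probes were well above background on all 6 arrays and all were tested, and none of their spots was saturated. The highest stood at 53.5% of the saturation value. The number of probes well above background was 23649 to 29108 on the CFD diet arrays and 21740 to 26333 on the control arrays. The 75th percentile of the signal was 404 to 670.2 on the CFD diet arrays and 365.0 to 439 on the control arrays, so the scaling lowers CFD diet values relative to control values. Arrays correlated across probes, which are not independent replicates, at 0.981 to 0.990 within the CFD diet group, at 0.989 to 0.993 within the control group and at 0.914 to 0.952 between groups. With the control arrays, CFD diet replicate 2 correlated at 0.946 to 0.952 and the other CFD diet arrays at 0.914 to 0.926.

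The apolipoprotein genes did not move together. Apoa4 rose 37.6-fold and Apoc2 rose 2.00-fold in the CFD diet livers, while on the log2 scale Mttp changed by -1.16, Apoa1 by -1.04 and Apoa2 by -0.75, and 2 of the 5 Apob probes were lower. Apoa5, Apoc1, Apoc3, Apoe and the other 3 Apob probes did not pass the test. By limma with Benjamini-Hochberg adjustment over 23484 tested probes, 7 of the 16 probes had an adjusted p below 0.05, 2 higher and 5 lower. Across all tested probes 49.7% were called (22.1% higher and 27.6% lower), so the share of called members was near the background. All 3 CFD diet values lay on 1 side of all 3 control values for 7 member probes, the same number in each direction as the calls, and for 61.6% of all probes. The median log2 fold change was -0.52 over the 16 probes and -0.12 over all tested probes. In whole tissue, fewer cells of a type and less RNA per cell cannot be told apart.

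Directions are relative to the scaling. Of all called probes 44.5% were higher in the CFD diet livers with the 75th percentile, 31.0% with the array median in its place and 79.8% with no scaling between arrays, an alternative chosen after seeing the data. The median of all tested probes moved to -0.33 with the array median and to 0.34 with no scaling. Of the member probes, 12 were called with the array median, 10 of them lower. With no scaling 2 were called, Apoa4 and Apoc2, both higher, as the plot of changes by scaling shows. Across all 23484 tested probes 12850 were called with the array median and 7194 with no scaling.

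**Figure D1:**
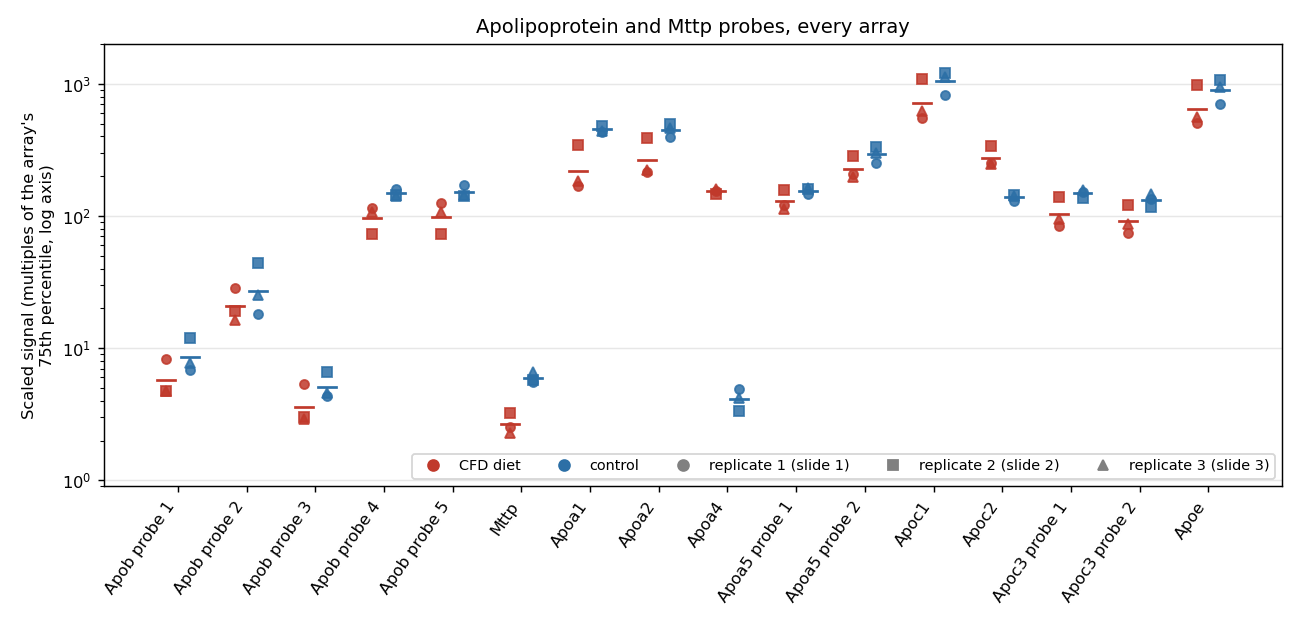
Scaled signal (multiples of the 75th percentile of the array, log axis) of the 16 probes on each of the 6 arrays, CFD diet to the left of control for each probe. Symbols mark the replicate and its slide, and bars are means taken on the log scale. Apoa4 sits between 146 and 161 in the CFD diet livers and between 3.36 and 4.92 in the control livers, and the order of probes along the axis follows their roles, not their levels.

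**Figure D2:**
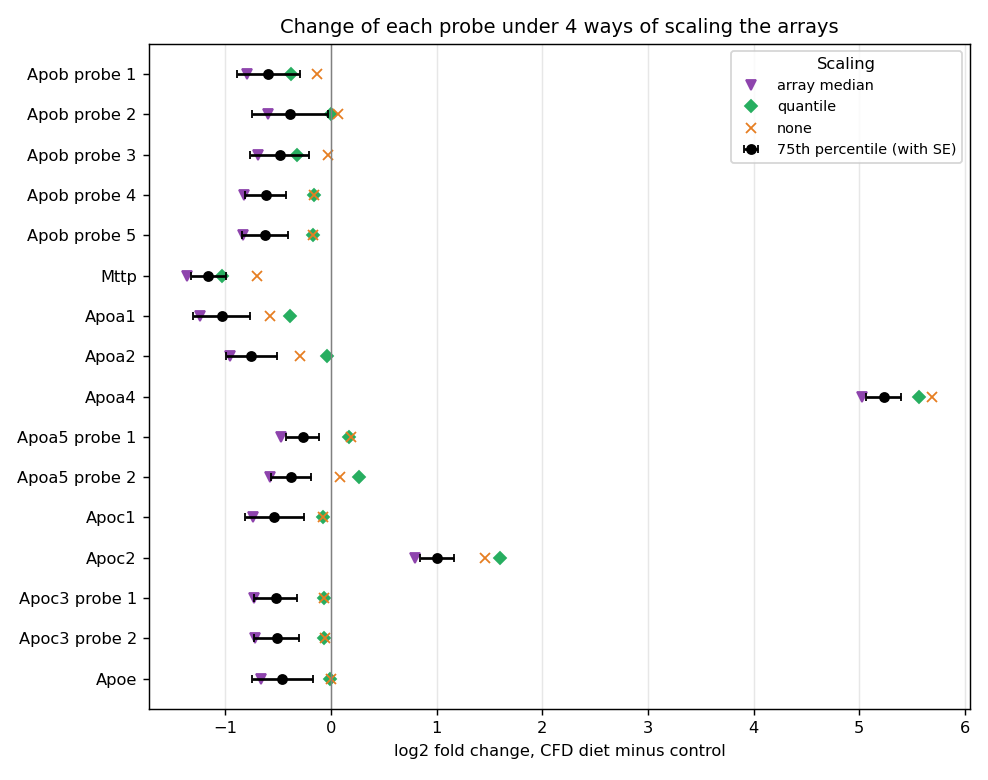
Log2 fold change (CFD diet minus control) of each probe with the arrays scaled to their 75th percentile (black, with SE) and under 3 other treatments of the array scale. Apoa4 and Apoc2 stay above 0 and Mttp below it, Apoc1, Apoc3 and Apoe come close to 0 under quantile normalization and with no scaling, and the Apoa5 probes lie above 0 there.

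Mttp, Apoa4 and Apoc2 are the members called under all or nearly all ways of processing, and their promoter windows are shown because these are the members on which the result turns. The windows are from RefSeq (build GRCm38.p6), which held windows for 8 of the 10 members, and run from 250 bases before the start site to 50 after it. That of Apoa4 is chr9:46240594-46240893 on the plus strand, that of Apoc2 is chr7:19677892-19678191 on the minus strand and that of Mttp is chr3:138143369-138143668 on the minus strand, each written 5′ to 3′ along its gene. Capitals mark matches, on either strand, to AGGTCA (the core motif of many nuclear receptors), CAAAGTCCA (an HNF4 type site), TGACGTCA (the cyclic AMP response element), its core TGACG, which the full element contains, and TATAAA (the TATA box).
Apoa4: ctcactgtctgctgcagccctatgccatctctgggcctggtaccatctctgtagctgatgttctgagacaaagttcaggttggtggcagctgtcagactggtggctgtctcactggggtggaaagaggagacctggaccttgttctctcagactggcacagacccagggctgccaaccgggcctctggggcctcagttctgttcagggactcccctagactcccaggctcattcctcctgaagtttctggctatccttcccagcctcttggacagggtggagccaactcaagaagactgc
Apoc2: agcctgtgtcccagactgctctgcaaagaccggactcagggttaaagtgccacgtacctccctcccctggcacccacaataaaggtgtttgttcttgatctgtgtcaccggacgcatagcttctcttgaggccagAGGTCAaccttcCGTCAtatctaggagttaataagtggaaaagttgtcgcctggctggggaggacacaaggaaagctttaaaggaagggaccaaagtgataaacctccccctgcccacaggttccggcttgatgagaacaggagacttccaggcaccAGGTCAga
Mttp: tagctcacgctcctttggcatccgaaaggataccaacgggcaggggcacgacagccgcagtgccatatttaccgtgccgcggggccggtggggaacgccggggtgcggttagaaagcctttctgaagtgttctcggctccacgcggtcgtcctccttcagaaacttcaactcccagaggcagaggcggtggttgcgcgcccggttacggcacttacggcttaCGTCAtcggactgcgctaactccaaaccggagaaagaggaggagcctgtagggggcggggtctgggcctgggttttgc
The Apoc2 window held AGGTCA at -115 and at 43 from the start site, and TGACG on the reverse strand (read as CGTCA) at -103. The Mttp window held TGACG on the reverse strand at -28. The Apoa4 window held none of these letters. Of 32851 windows in the table, 16.3% held AGGTCA, 0.475% CAAAGTCCA, 1.79% TGACGTCA, 20.8% TGACG and 13.6% TATAAA. These matches describe the letters of the windows and no binding was measured.

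Mttp, the triglyceride loader of the nascent particle, was lower in every CFD diet liver than in any control liver. Its probe (A_51_P178887, mm7 chr3:137903223-137903282, minus strand) gave 2.55, 3.24 and 2.29 in CFD diet livers 1 to 3, against 5.57, 5.75 and 6.64 in control livers 1 to 3. The groups did not overlap, with means of 2.69 ± 0.489 in the CFD diet livers and 5.99 ± 0.576 in the control livers (SD, n = 3 each). The log2 fold change was -1.16 ± 0.17 (SE, adjusted p = 0.00208), a level 0.447 times that of the control livers. Each of the 3 slides carried 1 array of each diet, and within the slides the log2 difference was -1.12, -0.83 and -1.53. Among 15 alternatives the change ranged from -1.37 to -0.70 and was called in 14. It was not called without scaling between arrays, at -0.70 (adjusted p = 0.0594).

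Apob, which encodes the structural protein of VLDL and its remnants, was read by 5 probes spread over 17712 bases of chromosome 12, numbered here along the gene. The last 2 adjoin each other (mm7 chr12:7972247-7972306 and chr12:7972307-7972366, plus strand). Probe 4 (A_51_P470542) gave 115, 73.4 and 106 in the CFD diet livers, against 160.2, 145 and 141 in the control livers. Probe 5 (A_52_P441070) gave 125, 72.8 and 106 in the CFD diet livers, against 173, 143 and 144 in the control livers. For both probes every CFD diet value lay below every control value, and CFD diet liver 2 was the lowest. The log2 fold change was -0.62 ± 0.19 for probe 4 (adjusted p = 0.0329) and -0.63 ± 0.22 for probe 5 (adjusted p = 0.0474). As the 2 probes are neighbours on the same transcript they are not independent readings.

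The 3 Apob probes upstream of these did not pass the test. Probe 1 (A_51_P436690, mm7 chr12:7954595-7956804) gave 8.24, 4.71 and 4.77 in the CFD diet livers, against 6.84, 12.0 and 7.73 in the control livers. Probe 2 (A_51_P413088, mm7 chr12:7963823-7963882) gave 28.6, 19.1 and 16.3 in the CFD diet livers, against 18.0, 44.1 and 25.3 in the control livers. Probe 3 (A_51_P380650, mm7 chr12:7967854-7967913) gave 5.33, 3.02 and 2.94 in the CFD diet livers, against 4.32, 6.58 and 4.58 in the control livers. On all 3 probes the groups overlapped, because CFD diet liver 1 was the highest of its group and control liver 1 the lowest of its own. The log2 fold changes were -0.59 ± 0.30, -0.39 ± 0.36 and -0.49 ± 0.28 (adjusted p = 0.137, 0.392 and 0.186). Without CFD diet replicate 1, probe 1 changed by -0.86 (adjusted p = 0.0432) and probe 3 by -0.77 (adjusted p = 0.0344).

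The contrast between the ends of Apob was tested directly on the mean log2 value of the last 2 probes minus that of the first 3. This difference was 3.70 ± 0.367 in the CFD diet livers and 3.83 ± 0.561 in the control livers (SD, n = 3 each), so the diets differed by -0.13, with an exact two-sided permutation p of 0.8 where 0.1 is the smallest possible. The probes of Apob thus had unequal calls, and this test did not detect a difference between the ends. The call of probe 4 held in 8 and that of probe 5 in 7 of 15 alternatives. Both were lost with quantile normalization (adjusted p = 0.666 and 0.695), with no scaling, with no filter on dim probes and without any 1 of CFD diet replicate 3 or control replicates 1, 2 and 3 (adjusted p between 0.06 and 0.132). That of probe 5 was also lost without CFD diet replicate 2, at -0.41 (adjusted p = 0.0691).

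Apoa4, an apolipoprotein best known from the intestine and also made by the liver, had the largest change of the 10 genes. Its probe (A_51_P327491, mm7 chr9:46199701-46200444, plus strand) gave 155, 146 and 161 in CFD diet livers 1 to 3, against 4.92, 3.36 and 4.18 in control livers 1 to 3. The CFD diet livers lay close together, with a mean of 154 ± 7.31, and the control livers had a mean of 4.15 ± 0.779 (SD, n = 3 each). The log2 fold change was 5.23 ± 0.16 (SE, adjusted p = 4.99e-05). Within the 3 slides the log2 difference was 4.98, 5.45 and 5.27. This was the rise of rank 54 among 23484 probes and of rank 46 among 15911 genes taken at their brightest probe. It was called under all 15 alternatives, between 5.03 and 5.69.

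Of 12 enterocyte markers, 5 were bright enough to be tested and 3 of them rose, where 23.7% of all tested genes were called higher (at the brightest probe). The 3 were Slc5a1, a glucose transporter, Vil1, the microvillus protein villin, at 2.44 ± 0.24 (adjusted p = 0.000511), and Treh, the enzyme trehalase, at 2.27 ± 0.33 (adjusted p = 0.0022). Slc5a1 was well above background on 1 control array and so passed the filter through the CFD diet arrays. The count of 3 rests in part on that filter, and the size of the Slc5a1 rise is not given. The 5 markers' summed scaled signal was 71.4 to 122 in the CFD diet livers and 48.8 to 70.7 in the control livers. Nearly all of that sum is Fabp2, the intestinal fatty acid binding protein, whose change was 0.52 ± 0.25 (adjusted p = 0.117). The enterocyte genes Lct, Cdh17 and Fabp6 were not well above background on any of the 6 arrays. In the same livers 6 of 7 cholangiocyte markers rose, and which cells carried the enterocyte markers was not tested. The part of the enterocyte markers' rise in the Apoa4 difference was not tested.

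Apoa1 and Apoa2 encode the main proteins of high density lipoprotein, and both fell. Apoa1, read by 10 spots of a single probe whose coefficient of variation was 3.03% to 5.16% on an array (A_51_P408082, mm7 chr9:46187961-46188020, plus strand), gave 168, 345 and 185 in the CFD diet livers, against 433, 483 and 442 in the control livers. Apoa2 (A_51_P128973, mm7 chr1:171195820-171195879, plus strand) gave 217, 388 and 224 in the CFD diet livers, against 398, 492 and 460.4 in the control livers. For both genes the groups did not overlap, and CFD diet liver 2 lay well above the other two of its group and nearest to the control livers. Apoa1 had a mean of 233 ± 97.9 in the CFD diet livers and 453 ± 26.3 in the control livers (SD, n = 3 each), with a log2 fold change of -1.04 ± 0.27 (adjusted p = 0.0189). Apoa2 had a mean of 276 ± 96.8 in the CFD diet livers and 450.3 ± 47.8 in the control livers (SD, n = 3 each), with a log2 fold change of -0.75 ± 0.24 (adjusted p = 0.0385).

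The size of the fall in Apoa1 and Apoa2 rested on the scaling. With quantile normalization Apoa1 changed by -0.39 (adjusted p = 0.0671) and Apoa2 by -0.04 (adjusted p = 0.775), and with no scaling by -0.58 (adjusted p = 0.116) and -0.30 (adjusted p = 0.42). The Apoa1 call held in 8 of 15 alternatives and the Apoa2 call in 7. Both were lost with no filter on dim probes (adjusted p = 0.0699 and 0.119). Both were also lost on leaving out any 1 of CFD diet replicate 1, CFD diet replicate 3, control replicate 2 or control replicate 3, with adjusted p between 0.0535 and 0.125, and that of Apoa2 also without control replicate 1 (adjusted p = 0.0587). Neither changed sign under the 15 alternatives.

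Apoa5, which promotes the clearance of triglyceride-rich particles by lipoprotein lipase, was read by 2 probes that did not pass the test. The first (A_52_P292404, mm7 chr9:46228623-46228682) gave 121, 156 and 114 in the CFD diet livers, against 145, 160.5 and 161 in the control livers. The second (A_51_P259930, mm7 chr9:46229126-46229185) gave 210, 283 and 196 in the CFD diet livers, against 252, 335 and 302 in the control livers. On both, CFD diet liver 2 lay among the control values. The changes were -0.27 ± 0.16 (95% interval -0.64 to 0.10, adjusted p = 0.19) and -0.38 ± 0.19 (95% interval -0.82 to 0.07, adjusted p = 0.134). The sign depended on the scaling, as the alternatives reached 0.19 for the first probe and 0.27 for the second.

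Apoc2, the required cofactor of lipoprotein lipase, was the only C apolipoprotein of those tested here that rose. Its probe (A_51_P334979, mm7 chr7:17353942-17353966, minus strand) gave 250.4, 340.0 and 248 in CFD diet livers 1 to 3, against 129, 143 and 143 in control livers 1 to 3. The coordinates of this single probe cover 25 bases, against 60 or more for every other member probe, and the reason was not tested. The groups did not overlap, with means of 279 ± 52.6 in the CFD diet livers and 138 ± 8.14 in the control livers (SD, n = 3 each). The log2 fold change was 1.00 ± 0.16 (SE, adjusted p = 0.00313), and within the slides the difference was 0.96, 1.25 and 0.80. It was called under all 15 alternatives, from 0.80 with the array median to 1.60 with quantile normalization.

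Apoc3, which restrains lipoprotein lipase, Apoc1, which acts on lipoprotein enzymes and on uptake, and Apoe, a ligand for the receptor uptake of lipoproteins, did not pass the test. The 2 Apoc3 probes overlap on the genome (A_51_P310629 and A_52_P574306, from mm7 chr9:46191393 on the minus strand) and agreed closely. The first gave 83.9, 139 and 94.1 in the CFD diet livers, against 152, 136 and 157 in the control livers. The second gave 73.7, 122 and 86.8 in the CFD diet livers, against 135, 116 and 146 in the control livers. On both, CFD diet liver 2 was above control liver 2 on the shared slide, and the other CFD diet values were below all control values. The changes were -0.52 ± 0.20 (adjusted p = 0.0701) and -0.52 ± 0.21 (adjusted p = 0.0779).

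Apoc1 (A_51_P164504, mm7 chr7:17371881-17371940) gave 555, 1078 and 619 in the CFD diet livers, against 829, 1214 and 1126 in the control livers. Apoe, read by 10 spots (A_51_P171999, mm7 chr7:17378757-17378816, coefficient of variation 6.00% to 12.9% on an array), gave 501, 978 and 558 in the CFD diet livers, against 705, 1067 and 945 in the control livers. In both genes CFD diet liver 2 again lay among the control values. The change was -0.54 ± 0.28 for Apoc1 (95% interval -1.21 to 0.13, adjusted p = 0.152) and -0.46 ± 0.29 for Apoe (95% interval -1.14 to 0.22, adjusted p = 0.219). With no scaling between arrays the change was -0.08 for Apoc1 and -0.0012 for Apoe.

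The sign of the difference was the same on all 3 slides for 11 of the 16 probes, 2 higher and 9 lower, and differed between slides for 5 probes, the first 3 of Apob and both of Apoc3. Several probes that did not pass the test were called when CFD diet replicate 2 was left out. Without it 12 of the 16 probes were called, 10 of them lower, and these included both Apoa5 probes, Apoc1 at -0.83 (adjusted p = 0.0195), both Apoc3 probes and Apoe at -0.76 (adjusted p = 0.0292). Across all probes 12865 of 25010 were called without that array. The array of CFD diet replicate 2 had the lowest 75th percentile of its group, at 404. The summed scaled signal of 13 hepatocyte markers was 2440 to 3983 in the CFD diet livers, with replicate 2 the highest, and 3825 to 4958 in the control livers. By limma 7 of these 13 markers fell and 0 rose on the CFD diet, with 0 rising at an unadjusted p below 0.05 too. Thus 53.8% of these markers were called, against 51.1% of all tested genes (23.7% higher and 27.4% lower). The part of hepatocyte RNA in the members' changes was not tested.

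**Figure D3:**
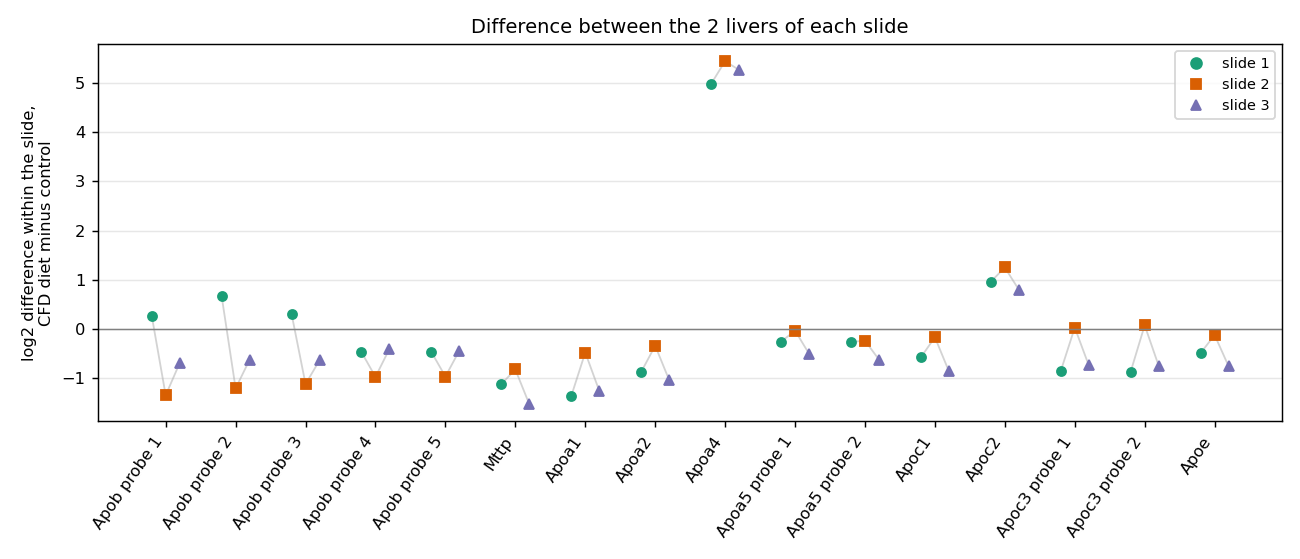
Difference in log2 scaled signal between the CFD diet array and the control array of the same slide, for each of the 16 probes and 3 slides. Apoa4 (4.98 to 5.45) and Apoc2 (0.80 to 1.25) lie above 0 on all 3 slides and Mttp (-1.53 to -0.83) below, whereas Apob probes 1 to 3 lie above 0 on slide 1 and below it on slides 2 and 3.

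Members that lie beside each other on a chromosome were compared in the coordinates of the array design (mm7). Apoa1, Apoc3, Apoa4 and Apoa5 span 41.2 kb of chromosome 9. In that cluster Apoa4 rose by 5.23, Apoa1 fell by 1.04, and the probes of Apoc3, which lies between these genes, and of Apoa5 were not called. A probe with no gene name in the files (A_51_P327496, mm7 chr9:46200791-46200843) lies 346 bases beyond the end of the Apoa4 probe on the same strand. It gave 219, 192 and 204 in the CFD diet livers, against 6.93, 3.97 and 5.23 in the control livers, a log2 fold change of 5.29 ± 0.21 (adjusted p = 5.48e-05). Whether this probe reads the Apoa4 transcript was not tested. The other 6 probes that are not members within 20 kb of the cluster were 3 for BC033915, all lower (-1.80 to -1.19), 2 for Zfp259 and 1 for a predicted transcript, not called.

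Apoc2, Apoc1 and Apoe span 24.9 kb of chromosome 7. Apoc2 rose there by 1.00 while Apoc1 and Apoe were not called. Apoc4, which lies between Apoc2 and Apoc1, had 115, 182 and 126 in the CFD diet livers, against 160, 147 and 162 in the control livers, a change of -0.17 ± 0.19 (adjusted p = 0.477). The 2 Tomm40 probes beyond Apoe were not called. In both clusters a gene that rose thus lay in a row with genes that were lower or not called.

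**Figure D4:**
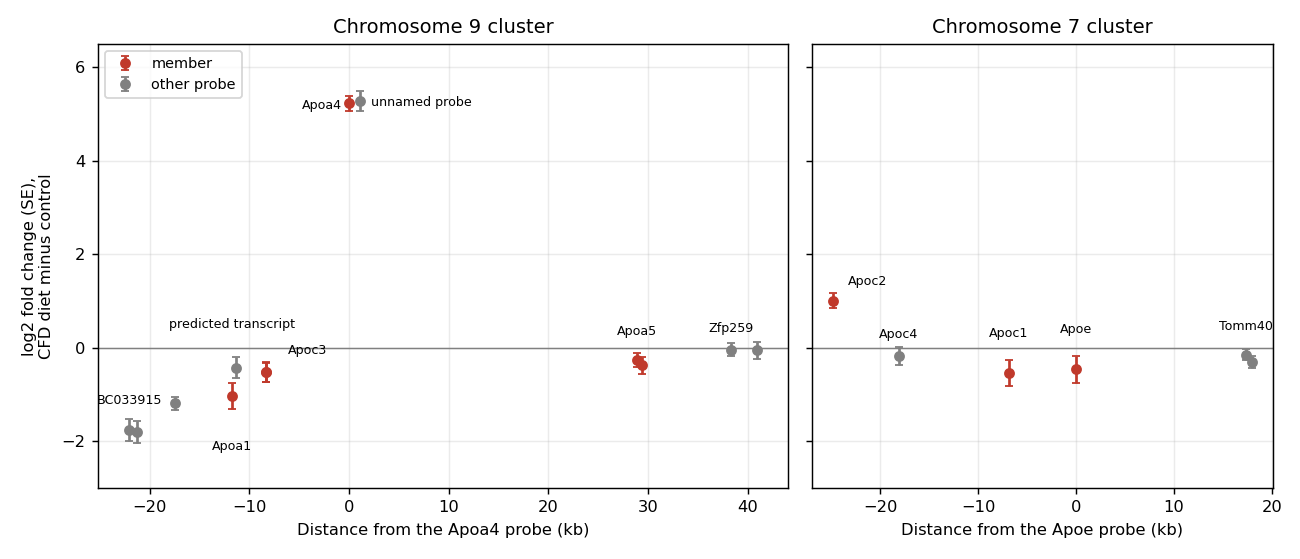
Log2 fold change with its SE (CFD diet minus control) of every probe in the chromosome 9 and chromosome 7 clusters and within 20 kb of them, against distance from the Apoa4 or the Apoe probe in kb. The Apoa4 probe (5.23) and the unnamed probe beside it (5.29) stand apart from all other probes of their cluster, and Apoc2 (1.00) is the highest of its own.

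The other genes of lipoprotein metabolism were described through 5 lists with 120 genes, each gene at its brightest tested probe. The lists were chosen with earlier results of these data known, so their shares are a description only. Of 108 tested genes 11 rose and 62 fell (67.6% called, median -0.66), against 51.1% of all 15911 tested genes (23.7% higher and 27.4% lower, median -0.11). As given above, 7 of 13 hepatocyte markers fell in the same livers, and their part in these falls was not tested.

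Among 15 tested genes for other apolipoproteins and proteins that travel with lipoproteins, 1 rose and 10 fell (median -0.84). The riser was Apobr, a macrophage receptor for apolipoprotein B48, at 1.68 ± 0.24 (adjusted p = 0.00213). The largest falls were those of Saa4, a constitutive serum amyloid A of high density lipoprotein, at -1.71 ± 0.32, Apon at -1.45 ± 0.25 and Apol9b at -1.40 ± 0.35, whose signal cannot be set apart from that of its near-identical copy Apol9a. Apoh, a phospholipid-binding glycoprotein, had -1.17 ± 0.22 and Apom, a carrier of a bioactive sphingolipid, -0.78 ± 0.22, both called. The Apom call (adjusted p = 0.0225) was lost with quantile normalization, at -0.34 (adjusted p = 0.0712), and on leaving out any array but CFD diet replicate 2. It was also lost with no filter on dim probes (adjusted p = 0.0798) and with no scaling (adjusted p = 0.332). The Apol9b call was lost with no filter (adjusted p = 0.0587), with no scaling (adjusted p = 0.0522) and without control replicate 3 (adjusted p = 0.0509).

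Of 29 tested genes for the assembly and secretion of VLDL, 3 rose and 13 fell (median -0.27). Apobec1, the editing enzyme that turns the Apob message into its short B48 form, rose by 1.04 ± 0.23 (adjusted p = 0.00999) on 1 of its 2 probes. Sec23a, a coat protein of vesicles leaving the endoplasmic reticulum, had 0.44 ± 0.14 (adjusted p = 0.0376). P4hb, the partner of Mttp, gave 141, 150.4 and 140.1 in the CFD diet livers, against 117, 103 and 121 in the control livers, a change of 0.35 ± 0.12 (adjusted p = 0.0477). This call is from the fit over genes, and the single P4hb probe was not called in the fit over probes used for Mttp. The calls of Sec23a and P4hb were lost with normexp background correction and with the array median, where P4hb changed by 0.14 (adjusted p = 0.491). Both were also lost with no filter on dim probes (adjusted p = 0.127 and 0.161), and that of P4hb with a moderated variance trend (adjusted p = 0.0871). The P4hb call was lost on leaving out any 1 of the 6 arrays (adjusted p between 0.0763 and 0.145), and that of Sec23a on leaving out any array but CFD diet replicate 2 (adjusted p between 0.0774 and 0.114). The largest falls were those of Fitm1, a fat storage protein of the endoplasmic reticulum, at -1.95 ± 0.42, and of the carboxylesterases Ces1g at -1.87 ± 0.32 and Ces1d at -1.68 ± 0.32. Tm6sf2, which promotes the lipidation of VLDL, had 0.03 ± 0.20 (adjusted p = 0.904).

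Of 17 tested receptor and uptake genes, 4 rose and 7 fell (median -0.32). Vldlr, the receptor for VLDL, rose by 1.95 ± 0.26 (adjusted p = 0.00158), and Cd36, a fatty acid and lipoprotein scavenger receptor, by 1.75 ± 0.16 (adjusted p = 0.000401). Sorl1 was called higher. It passed the filter through the CFD diet arrays, with 1 control array well above background, so the size of its rise is not given. Sorl1 was not called with normexp (adjusted p = 0.0575) or with no filter on dim probes (adjusted p = 0.0872). Nor was it called without CFD diet replicate 1, CFD diet replicate 3 or control replicate 2 (adjusted p between 0.065 and 0.0913). Ndst1, a heparan sulfate synthesis enzyme, fell by 0.92 ± 0.14, a call lost with no scaling (adjusted p = 0.182). Scarb1, the receptor for high density lipoprotein, had -0.32 ± 0.12 (adjusted p = 0.0699) and was called lower with the array median, at -0.52 (adjusted p = 0.0304).

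Of 17 tested lipase and remodelling genes, 3 rose and 9 fell (median -0.50). Lpl, the lipoprotein lipase that Apoc2 activates, gave 37.3, 28.7 and 44.9 in the CFD diet livers, against 6.06, 10.9 and 5.99 in the control livers, a rise of 2.31 ± 0.28 (adjusted p = 0.00122). Its maturation factor Lmf1 changed by -2.05 ± 0.40, the hepatic lipase Lipc by -1.90 ± 0.31 and the cholesterol esterifying enzyme Lcat by -1.60 ± 0.25. Abcg1, a cholesterol exporter, rose by 1.20 ± 0.20 and the lysosomal lipase Lipa by 0.48 ± 0.15. The Lipa call was lost with normexp (adjusted p = 0.0617), with the array median, at 0.28 (adjusted p = 0.208), and with no filter on dim probes (adjusted p = 0.119). It was also lost on leaving out any array but CFD diet replicate 2. Abca1, which lipidates apolipoprotein A-I, had -0.22 ± 0.11 (adjusted p = 0.148) and was called lower with the array median, at -0.42 (adjusted p = 0.0451).

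Of 15 macrophage markers 13 rose, 1 (Clec4f) fell and 1 was not called. Their summed scaled signal was 567 to 747 in the CFD diet livers and 204 to 282 in the control livers. Macrophages are known to express Lpl, Cd36, Abcg1, Apobr, Apoe and Apoc2, and the part of macrophage RNA in the changes of these genes was not tested. All 8 stellate and fibroblast markers and 6 of 7 cholangiocyte markers rose as well, where 23.7% of all tested genes were called higher.

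Of 30 tested genes for transcription regulators of lipoprotein genes, 0 rose and 23 fell by limma (median -0.92), and at an unadjusted p below 0.05 the counts were 0 and 25. Without control replicate 3, 1 was called higher. Hnf4a, a nuclear receptor that drives many hepatic apolipoprotein genes, gave 5.29, 7.35 and 5.06 in the CFD diet livers, against 12.4, 10.1 and 12.7 in the control livers, a log2 fold change of -1.0 ± 0.19 (adjusted p = 0.00523). Foxo1 changed by -0.98 ± 0.14 and Ppara by -1.12 ± 0.15, both called. Creb3l3, a membrane-bound factor known in the mouse for driving Apoa4 and Apoc2, gave 47.0, 63.8 and 52.1 in the CFD diet livers, against 76.2, 79.6 and 86.7 in the control livers, a fall of 0.58 on the log2 scale (adjusted p = 0.0172). The largest falls were those of Onecut1 at -1.85 ± 0.59, Klf15 at -1.60 ± 0.25 and Cebpa at -1.59 ± 0.27. Onecut1 was 16.5 in control liver 2, against 3.28 and 3.63 in the other control livers. Without control replicate 2 its change was -1.10 (adjusted p = 0.00532), smaller than the falls of Klf15 and Cebpa without that array (-1.64 and -1.68). The Onecut1 call was lost without any 1 of the CFD diet replicates (adjusted p between 0.0808 and 0.106). It was also lost with no filter on dim probes (adjusted p = 0.108) and with a moderated variance trend (adjusted p = 0.0588). The call of Creb3l3 was lost with quantile normalization, at -0.14 (adjusted p = 0.241), with no filter on dim probes (adjusted p = 0.0716) and without CFD diet replicate 3 or control replicate 3 (adjusted p = 0.059 and 0.0713). The falls of Hnf4a, Foxo1, Ppara and Creb3l3 were not called with no scaling between arrays, where their adjusted p lay between 0.063 and 0.746.

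**Figure D5:**
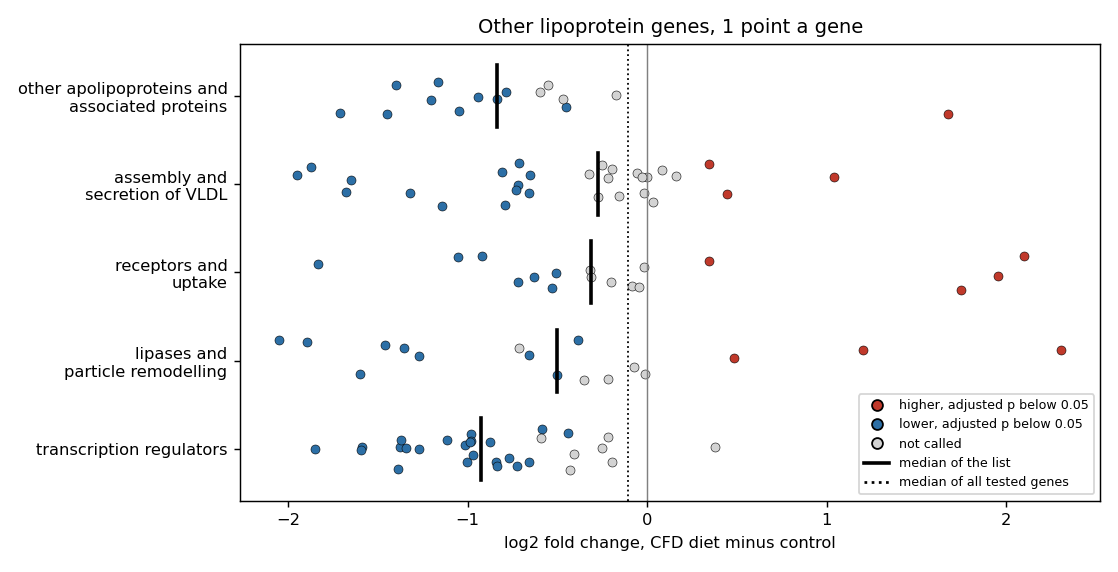
Log2 fold change (CFD diet minus control) of every tested gene of the 5 lists, 1 point a gene, with the median of each list (thick bar) and of all tested genes (dotted line, -0.11). The transcription regulators have no gene called higher and a median of -0.92, and the assembly list lies nearest to all genes, at -0.27.

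The genes closest to Apoa4 were taken by Euclidean distance over the 6 arrays, each gene centred on its control mean in log2. The unnamed probe beside Apoa4 was the closest, at a distance of 0.23. It was counted as a gene of its own, here and in the rank of Apoa4, though it may be another reading of Apoa4, which was not tested. The next 4 were Bex1, Acot5, an acyl-CoA thioesterase, Meltf, the iron-binding melanotransferrin, and Fez1. They passed the filter through the CFD diet arrays, so their distances rest on control signals at background, and neither these distances nor their order is given. Bex1, Acot5 and Fez1 were not well above background on any control array, and rose at least 15.6-fold, 13.7-fold and 17.0-fold. These bounds set the mean of the CFD diet arrays against the mean, in the control arrays, of the higher of the lowest signal well above background and the probe's own value. Meltf gave 0.945, 0.911 and 1.24 in the CFD diet livers, against 0.0372, 0.0280 and 0.0213 in the control livers, with 1 control array well above background, so the size of its rise is not given.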

How the data were processed

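Liver RNA was measured on 6 arrays, 3 a diet. Members and gene lists were chosen with earlier results of these data known. The deposited scanner files give a processed intensity for every spot, background-subtracted by Agilent Feature Extraction, version 10.5.1.1 per the file headers and 10.7 per the submitters' processing notes. The deposited value table holds the same intensity values with each 75th percentile near 1000 (column medians 61.5 to 80.6) on a linear scale with no centring of genes. By rank, each of its columns matched another replicate of its own group. The intended replicate numbering is unknown, and the table served as an alternative only. Per-sample columns left unmapped numbered 0.

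Log2 intensity minus the array's 75th percentile over spots that are not controls was used, with outlier spots left out (2 spots of Apoe on CFD diet replicate 3) and spots of a probe averaged. A probe had to be flagged well above background on each array of 1 or both diets and was then tested with limma 3.58.1 (lmFit, eBayes) in R 4.3.3, adjusted by Benjamini-Hochberg over 23484 probes, or over 15911 genes at their brightest probe, and called below 0.05. The error given with a log2 fold change is limma's standard error (SE). All p-values called adjusted are from these limma fits. Single contrasts used exact permutation. The method was tested on simulated data. Member names are those of the files, names of list genes were updated through a RefSeq table (GRCm38.p6), coordinates are mm7 per the file headers, and the 3 arrays of a group limit the precision.

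Named genes were all member probes, the up to 3 largest called rises and falls of each list, genes fixed for their role, and the 5 genes nearest to Apoa4. Some list genes that the rule takes are counted in their lists and not reported singly here. Alternatives were normexp, quantile and array median scaling, no scaling, other filters, a moderated variance trend, slide as a block, the value table, another probe rule and leaving out each array.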

Additional observations from a re-analysis of the deposited data

How the results depend on the processing

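The calls of Apoa4 and Apoc2 held under all 15 alternatives, and that of Mttp under all but no scaling between arrays, the single alternative added after seeing the data. Of the 16 member probes, 7 were called (5 lower) in the main setting, 3 (1 lower) with quantile normalization and with no filter on dim probes, 12 (10 lower) with the array median, and 2 (0 lower, 2 lower at an unadjusted p below 0.05 by limma) with no scaling. Across all tested probes 11670 of 23484 were called in the main setting, 12185 with quantile normalization, 12850 with the array median and 7194 with no scaling. With no filter on dim probes 7766 of 41174 probes were called. Leaving out each array in turn gave 3 to 12 member probes called, 2 in each case higher and 1 to 10 lower. The highest count came without CFD diet replicate 2 and the lowest without CFD diet replicate 3, control replicate 2 or control replicate 3. Without control replicate 1 there were 4. Across all probes 12865 of 25010 were called without CFD diet replicate 2 and 8376 of 23685 without CFD diet replicate 3. Without control replicate 2 these counts were 9700 of 23610, and without control replicate 3 they were 8286 of 23979. The lipoprotein genes of the 5 lists numbered 73 called, 11 of them higher. With no filter 41 were called (6 higher and 35 lower) and with no scaling 34 (23 lower), and 6 were higher with normexp and 7 with the array median. Of all tested genes 8130 of 15911 were called in the main setting, 5501 of 27670 with no filter and 5275 of 15911 with no scaling. Leaving out each array gave 46 to 72 called list genes, with 6 to 9 higher and 40 to 63 lower. The lowest count, 46, was without CFD diet replicate 3. Of single genes, the change of Apof became 0.0214 with quantile normalization and 0.0045 with no scaling. Canx (not called in the main setting) had 0.37 with quantile normalization (adjusted p = 0.0475) and -0.60 at the median of its probes (adjusted p = 0.00549). Furin had 0.0709 with no scaling, and Lrp1 had 0.0914 at the median of its probes. Some alternatives also bring a smaller number of arrays or a larger number of tested probes, and the causes of these changes were not tested. With the slide as a replicate block, 7 member probes (5 lower) and 65 list genes were called, and no member call changed. Among the list genes named in the text, the calls of Sec23a, P4hb, Apof and Furin were lost with it (adjusted p = 0.0502, 0.102, 0.0789 and 0.0671). The deviations of same-numbered arrays correlated at 0.10, -0.08 and -0.00, so the numbers were not taken as pairs. Across all probes 10296 were called with that block and 11670 without it. All 16 member probes were well above background on every array.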
